A study of Mus musculus with 6 samples.

Results

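Respiratory chain assembly factors are proteins that help to build the complexes of the respiratory chain and the ATP synthase but are, in the main, not part of the finished enzymes. The 41 genes described here act on complex I (13 genes), complex III (6), complex IV (19) and complex V, the ATP synthase (3). They were listed by name, and each was read on the array row that names that gene alone, taking the row with the highest mean over all arrays where there were several. Of the 41, 38 had such a row, among 18820 genes named on the array. Sco2 and Pet117 lie on rows shared with neighbouring genes, and Pet100 has no row in the annotation used, so these 3 are not analysed here. Nubpl and Lyrm7 were dimmer than the level required for testing, which leaves 36 tested factors among 11292 tested genes.

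RNA came from C2C12 cells, immortalized mouse myoblasts that form multinucleate myotubes when serum is lowered. All 6 samples were differentiated in 2% horse serum and transfected on day 6 with a locked nucleic acid (LNA) oligonucleotide at 50 nM, and RNA was taken 24 h later, on day 7. The silenced group (3 arrays) received an LNA silencer of miR-382-5p, and the control group (3 arrays) a negative control LNA. The study is titled for an imbalance of mitochondrial and nuclear proteins after silencing of miR-382. The arrays measure RNA, so no such imbalance of proteins was measured here. C2C12 is a single cell line, and the labels leave unsaid whether replicates are independent cultures, so each p-value reflects only how far these samples vary, and that variation may be technical. All values are log2 expression levels from whole-transcript arrays, each group holds 3 arrays, and differences are silenced minus control.

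A respiratory complex is assembled from separate modules that are made, supplied with cofactors and joined in the inner mitochondrial membrane. Dedicated factors stabilise newly made subunits, insert haem, copper and iron-sulfur clusters, modify single amino acids and hold intermediates until the next module arrives. Loss of such factors is a known cause of mitochondrial disease, often with muscle involvement.

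The microRNA that was silenced, and the stretches of promoter discussed with the results, are shown first. The mature strand is given with its seed, bases 2 to 8, in capitals, since these are the bases by which a microRNA mainly recognises its targets. It lies at chr12:109733781-109733802 on the plus strand (RefSeq, GRCm38.p6). The next 4 sequences are 30-base stretches around a match to a motif of a known regulator of mitochondrial genes, each written along the gene's own strand with the match in capitals. They are examples from 4 factors with values given below in every array, and other such factors hold these motifs too. Counted from the transcription start, the match begins at -27 in Cox10, 8 in Cox15, 18 in Tmem126b and -114 in Ndufaf4. The 4 stretches lie at chr11:64079481-64079510 (minus strand), chr19:43752975-43753004 (minus), chr7:90475960-90475989 (minus) and chr4:24897959-24897988 (plus) of the same build.
mmu-miR-382-5p: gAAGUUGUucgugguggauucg
Cox10, ETS motif: agcgctgggagCCGGAAGtgacaagaggaa
Cox15, ETS motif: cgacgcctgacCCGGAAGtgcttgttcttt
Tmem126b, YY1 motif: cgtgaggcgctAAGATGGCggcgtcccagc
Ndufaf4, NRF-1 motif: cccagatgtcTGCGCATGCgcctgtgcgga

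Inhibitor action on the mature microRNA was not measured by these arrays. The row for the precursor gene Mir382 read 1.69, 1.99 and 1.76 in control replicates 1 to 3 and 2.27, 2.28 and 1.99 in the silenced ones, values below the level required for testing, and does not check the silencing. Upper quartiles of the 6 arrays lay between 7.04 and 7.08. All 10 myotube markers were above the testing level, and all 5 adipocyte markers lay below it. Of 5 fibroblast markers, 4 were above it, and the mean of all 5 was 6.95 to 7.52 in control and 6.91 to 7.34 in silenced arrays. Of 5 osteoblast and chondrocyte markers, 2 were above it. All 6 markers of undifferentiated myoblasts were above it. The mean of the 10 myotube markers was 10.32 to 10.39 in control and 10.47 to 10.61 in silenced arrays, and that of the 6 myoblast markers was 8.38 to 8.54 and 8.26 to 8.49. Their part in the differences below was not tested. In these bulk samples, fewer cells of a type and less RNA per cell cannot be told apart.

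No assembly factor passed the test for a difference between silenced and control cells. In limma fitted over all tested genes, 0 of the 36 factors had a Benjamini-Hochberg adjusted p under 0.05 (smallest adjusted p = 0.871), as did 0% of all tested genes. At an unadjusted p under 0.05 there were also 0 of the 36, against 4.80% of all tested genes. The differences were small. They ran from -0.28 for Coa6 to 0.15 for Cox11, a largest fold of 1.22, and 22 of the 36 were smaller than 0.1 in size. The 95% confidence intervals of 33 factors lay wholly within -0.5 and 0.5, so at this precision larger shifts of those 33 are outside the interval, while smaller ones are not. Those of Uqcc3, Coa6 and Tmem126b reached down to -0.55, -0.61 and -0.53.

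The counts of lower and higher means varied between complexes, some with as few as 3 or 5 tested factors, and the complexes were not compared by a test. Of the 36 factors, 24 (66.7%) had a lower mean in silenced arrays, against 47.3% of all tested genes, and the median difference was -0.033 against 0.0089 over all tested genes. That median was -0.092 without control replicate 1, -0.016 without control replicate 2, -0.0083 without control replicate 3, -0.057 without silenced replicate 3 and -0.060 without both arrays numbered 1. Without both arrays numbered 1 the count was 25 (69.4%, against 50.2% of all tested genes), and with single arrays left out it ranged from 19, without control replicate 2, to 26, without silenced replicate 3. The lower means were in 10 of 12 complex I factors, 2 of 5 complex III factors, 9 of 16 complex IV factors and 3 of 3 complex V factors. The medians were -0.073 for complex I, 0.017 for complex III, -0.020 for complex IV and -0.038 for complex V. These medians are descriptions without a test. The median of complex I was below 0 within replicate numbers 2 and 3 (-0.064 and -0.096) and above it within number 1 (0.064). Of the 10 myotube markers, 9 had a higher mean in silenced arrays, and of the 6 myoblast markers 5 had a lower one. Among all tested genes 47.3% had a lower mean. The part of these markers in the direction of the factors was not tested.

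**Figure D1:**
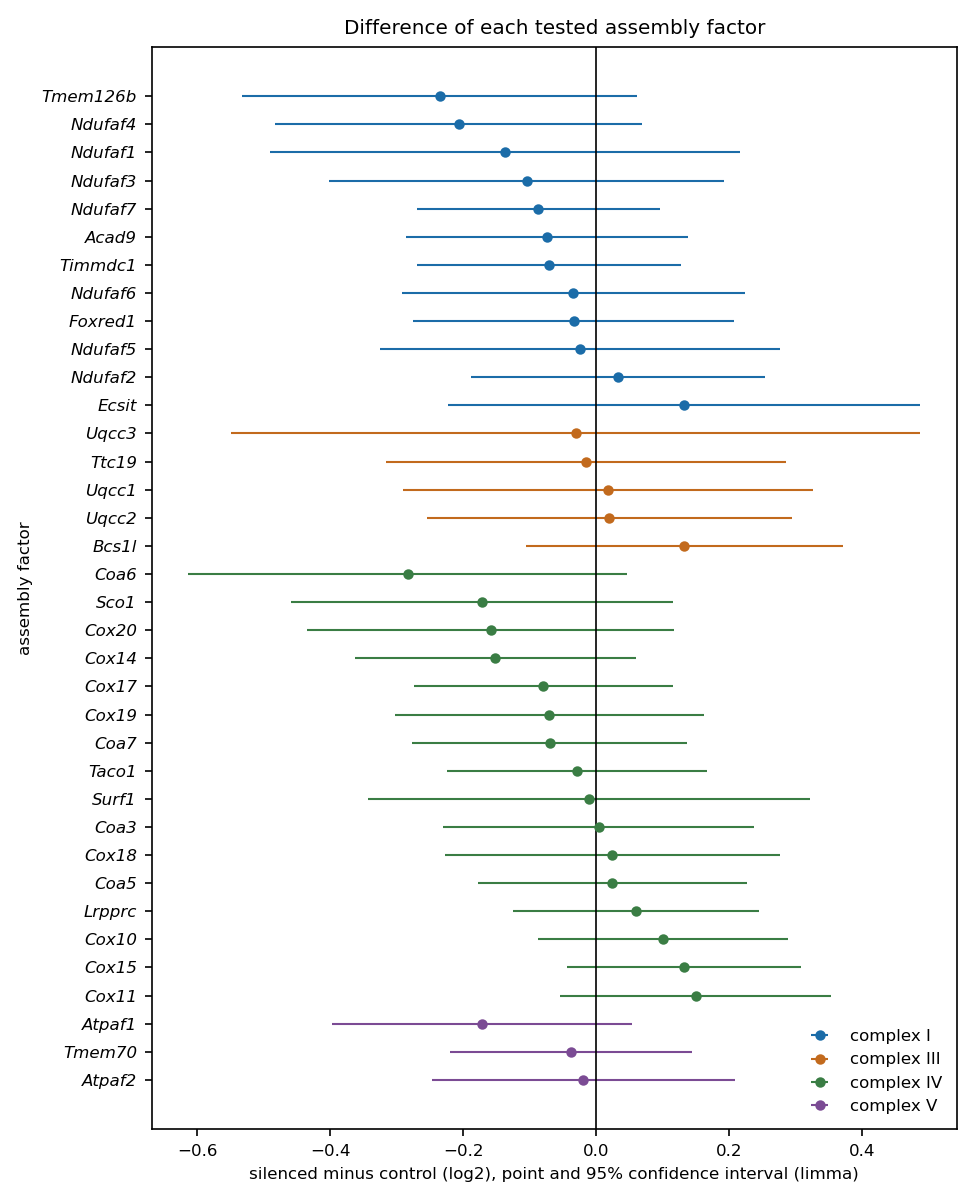
Difference between silenced and control arrays for the 36 tested assembly factors, as log2 units on the horizontal axis, with 1 row per gene and colours for complexes. Points are differences of means (n = 3 per group) and bars are limma's 95% confidence intervals. All 36 intervals include 0, and 10 of the 12 complex I points lie left of it.

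Replicate numbers 1 to 3 occur in both groups, and arrays of the same number deviated together (correlations of 0.55, 0.35 and 0.42). They were treated as pairs in the fit with a replicate block and where values are compared by pair. Standard errors and intervals are from the fit without the block unless the block is named. With replicate number as a block in limma, 0 of 36 factors again had an adjusted p under 0.05 (smallest adjusted p = 0.464), as did 0% of all genes. At an unadjusted p under 0.05 there were 2 factors, Tmem126b and Coa6, which is 5.56% of the 36 against 10.3% of all tested genes. Both were lower in silenced arrays. The 3 silenced values lay wholly above or below the 3 control values for 4 of the 36 factors (11.1%), against 11.8% of all tested genes. Higher without overlap were Cox10, Cox11 and Cox15, which is 8.33% against a background of 6.94%. Lower without overlap was Ndufaf7, which is 2.78% against 4.87%. These shares are close to the background and are no result about the factors as a group.

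Factors of the membrane arm of complex I had lower means in silenced arrays in 5 of 6 cases, with the largest difference in Tmem126b, and none passed the test. Ndufaf1, Acad9, Ecsit and Tmem126b form the MCIA complex, which holds the membrane arm during assembly, and Timmdc1 works with it. Tmem126b, a membrane protein of that complex, read 7.58, 7.43 and 7.66 in control replicates 1 to 3 and 7.41, 7.07 and 7.48 in silenced ones. Silenced replicate 2 was far below the other arrays, each silenced array was below the control array of its number, and the groups overlapped. The difference was -0.24 ± 0.13 (SE), with an adjusted p of 0.871 in limma and 0.464 with the replicate block. Without silenced replicate 2 it was -0.11. Ecsit, the MCIA member that also acts in Toll-like receptor signalling, had a higher mean in silenced arrays, at 6.79, 6.37 and 6.66 in control and 6.99, 6.54 and 6.69 in silenced arrays. It was higher in silenced arrays in each pair by 0.20, 0.17 and 0.024, and both arrays numbered 1 were the highest. The difference was 0.13 ± 0.15 (SE), and the error was 0.077 with the replicate block (limma, adjusted p = 0.554).

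The other membrane arm factors differed by less than their errors in the fit without the replicate block. With the block, the errors of Ndufaf1 and Acad9 were 0.11 and 0.073, below the size of their differences. Neither passed the test there (limma, adjusted p = 0.650 and 0.699). Ndufaf1, which gives its name to the family of complex I factors, differed by -0.14 ± 0.15 (SE), and its highest value was control replicate 3 at 6.83. Acad9, a flavoprotein related to fatty acid dehydrogenases, differed by -0.074 ± 0.091 (SE) and was lower in each pair. Timmdc1 differed by -0.071 ± 0.085 (SE). Foxred1, an oxidoreductase-like factor of later steps, differed by -0.034 ± 0.10 (SE). Within the MCIA complex, then, 3 members had lower and 1 a higher mean, and none passed the test.

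Factors of the peripheral arm, the part that carries the electron route from NADH to quinone, gave a like picture. Ndufaf4, which with Ndufaf3 stabilises the quinone-binding module, read 6.95, 7.38 and 7.25 in control and 6.98, 6.99 and 6.99 in silenced arrays. The silenced values had an SD of 0.0041, control replicate 1 lay just below all of them, and the difference rested on control replicates 2 and 3. It was -0.21 ± 0.12 (SE; limma, adjusted p = 0.871), -0.11 without control replicate 2 and -0.33 without control replicate 1. Ndufaf3 differed by -0.11 ± 0.13 (SE), with silenced replicate 1 lowest at 7.05.

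Ndufaf7, a protein methyltransferase, read 7.27, 7.26 and 7.35 in control and 7.14, 7.26 and 7.23 in silenced arrays. All silenced values lay below all control values, by a narrow margin: within replicate number 2 the difference was -0.0033. The mean difference was -0.087 ± 0.078 (SE; limma, adjusted p = 0.883), and -0.053 without silenced replicate 1. Ndufaf5, which hydroxylates an arginine of Ndufs7, and Ndufaf6 differed by -0.024 ± 0.13 (SE) and -0.035 ± 0.11 (SE). Ndufaf2, a late factor that binds a nearly complete complex, differed by 0.033 ± 0.094 (SE).

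Nubpl, which delivers iron-sulfur clusters to complex I, was not tested because its mean lay below the testing level of 3.87. It read 3.41, 3.48 and 3.85 in control and 3.64, 3.52 and 3.73 in silenced arrays, and the groups overlapped.

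**Figure D2:**
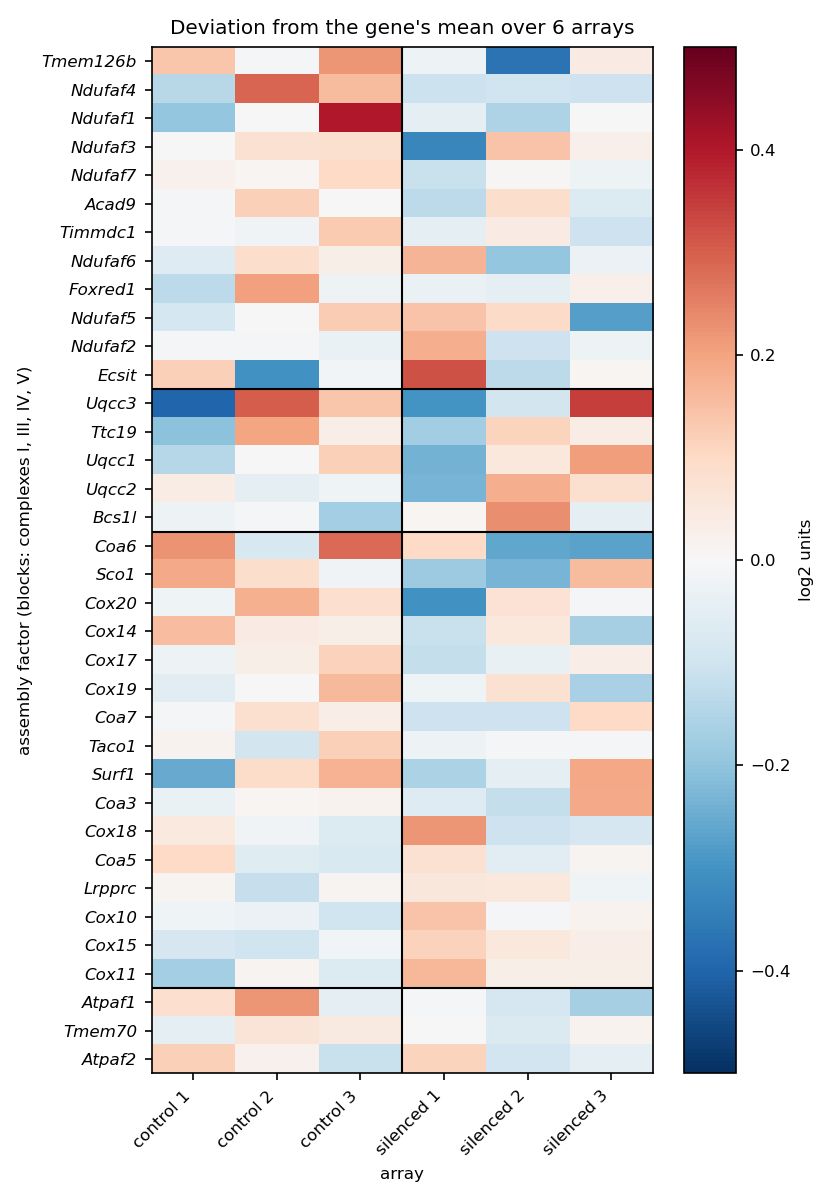
Deviation of each tested factor from its own mean over the 6 arrays, in log2 units by colour, with arrays as columns and factors as rows in blocks for complexes I, III, IV and V. In the complex III block Uqcc1, Uqcc3 and Ttc19 are below their means in both arrays numbered 1, and Cox10, Cox11 and Cox15 are at or above theirs in the 3 silenced arrays, apart from Cox10 in silenced replicate 2.

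Complex III factors did not differ between the groups beyond their spread, but several differed between replicate numbers. Uqcc1, Uqcc2 and Uqcc3 support the synthesis and stability of cytochrome b, the mitochondrially encoded subunit. Uqcc3 read 5.25, 5.95 and 5.78 in control and 5.34, 5.55 and 5.99 in silenced arrays. Both arrays numbered 1 were lowest, with a mean difference of -0.52 from numbers 2 and 3, while the groups differed by -0.031 ± 0.22 (SE). Uqcc1 read 6.78, 6.92 and 7.04 in control and 6.68, 6.97 and 7.13 in silenced arrays, again with both arrays numbered 1 lowest.

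Uqcc2 read 9.78, 9.70 and 9.72 in control and 9.51, 9.93 and 9.82 in silenced arrays, so silenced replicate 1 was lowest and the other silenced arrays highest. Its difference was 0.019 ± 0.12 (SE; limma, adjusted p = 0.984). A second row for Uqcc2, dimmer at a mean of 7.62, gave a difference of -0.17, so the rows disagree in direction.

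Bcs1l and Ttc19 act on the Rieske iron-sulfur protein. Bcs1l, the ATPase that inserts this protein, read 7.48, 7.50 and 7.34 in control and 7.51, 7.74 and 7.46 in silenced arrays. Each silenced array was above the control array of its number, silenced replicate 2 was highest, and the groups overlapped. The difference was 0.13 ± 0.10 (SE; limma, adjusted p = 0.877), 0.048 without silenced replicate 2 and 0.081 without control replicate 3. Ttc19, which helps to clear fragments of the Rieske protein, read 6.88, 7.28 and 7.11 in control and 6.91, 7.19 and 7.12 in silenced arrays, and differed by -0.016 ± 0.13 (SE). The same-numbered values of Ttc19 nearly coincide, and both arrays numbered 1 are the lowest. Lyrm7, the chaperone that hands the Rieske protein to Bcs1l, had the lowest mean among the factors and was not tested. It read 2.57, 2.61 and 2.88 in control and 2.86, 2.57 and 2.42 in silenced arrays, which overlapped.

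Among complex IV factors, those of haem A synthesis had higher values in all silenced arrays, without passing the test. Cox10 attaches a farnesyl group to haem, and Cox15 carries out the next step to haem A, the cofactor of the subunit COX1. Cox10 read 6.73, 6.72 and 6.65 in control and 6.89, 6.74 and 6.76 in silenced arrays. The groups did not overlap, and silenced replicate 1 stood above the others. The difference was 0.10 ± 0.080 (SE; limma, adjusted p = 0.878), and 0.054 without silenced replicate 1. Cox15 read 6.93, 6.91 and 7.00 in control and 7.13, 7.07 and 7.04 in silenced arrays. The groups did not overlap, and the difference was 0.13 ± 0.075 (SE; limma, adjusted p = 0.871), with a 95% confidence interval from -0.044 to 0.31. Neither passed the test, and the pair was singled out after its values were seen.

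Copper delivery factors had a lower mean in 4 of 5 cases. Cox17 passes copper to Sco1, Sco2 and Cox11, of which Sco1 and Sco2 serve the copper site of COX2 and Cox11 that of COX1. Cox11 read 6.67, 6.85 and 6.77 in control and 7.00, 6.87 and 6.87 in silenced arrays. The groups did not overlap, but silenced replicate 2 was only 0.014 above the control array of its number. The difference was 0.15 ± 0.087 (SE; limma, adjusted p = 0.871), and 0.056 without both arrays numbered 1.

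Coa6, a small protein of the COX2 copper route, had the largest difference among the factors, with a lower mean in silenced arrays. It read 6.72, 6.42 and 6.78 in control and 6.60, 6.24 and 6.23 in silenced arrays. Each silenced array was below the control array of its number, with differences of -0.12, -0.18 and -0.55, but silenced replicate 1 lay above control replicate 2, so the groups overlapped. The difference was -0.28 ± 0.14 (SE), 1.22-fold, with an adjusted p of 0.871 in limma and 0.464 with the replicate block. Sco1 read 6.43, 6.33 and 6.22 in control and 6.06, 6.01 and 6.40 in silenced arrays. It was lower in replicate numbers 1 and 2 and higher in number 3, and differed by -0.17 ± 0.12 (SE).

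Cox17, whose row had the highest mean of the tested factors, read 10.00, 10.05 and 10.14 in control and 9.90, 9.99 and 10.06 in silenced arrays. Levels of different rows also reflect their probes and say nothing of which factor is more abundant. The groups overlapped, the pairs differed by -0.093, -0.065 and -0.081, and the difference was -0.080 ± 0.083 (SE; limma, adjusted p = 0.898). It was -0.042 without control replicate 3 and -0.040 without silenced replicate 1. Cox19, a partner of Cox11, differed by -0.071 ± 0.099 (SE).

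**Figure D3:**
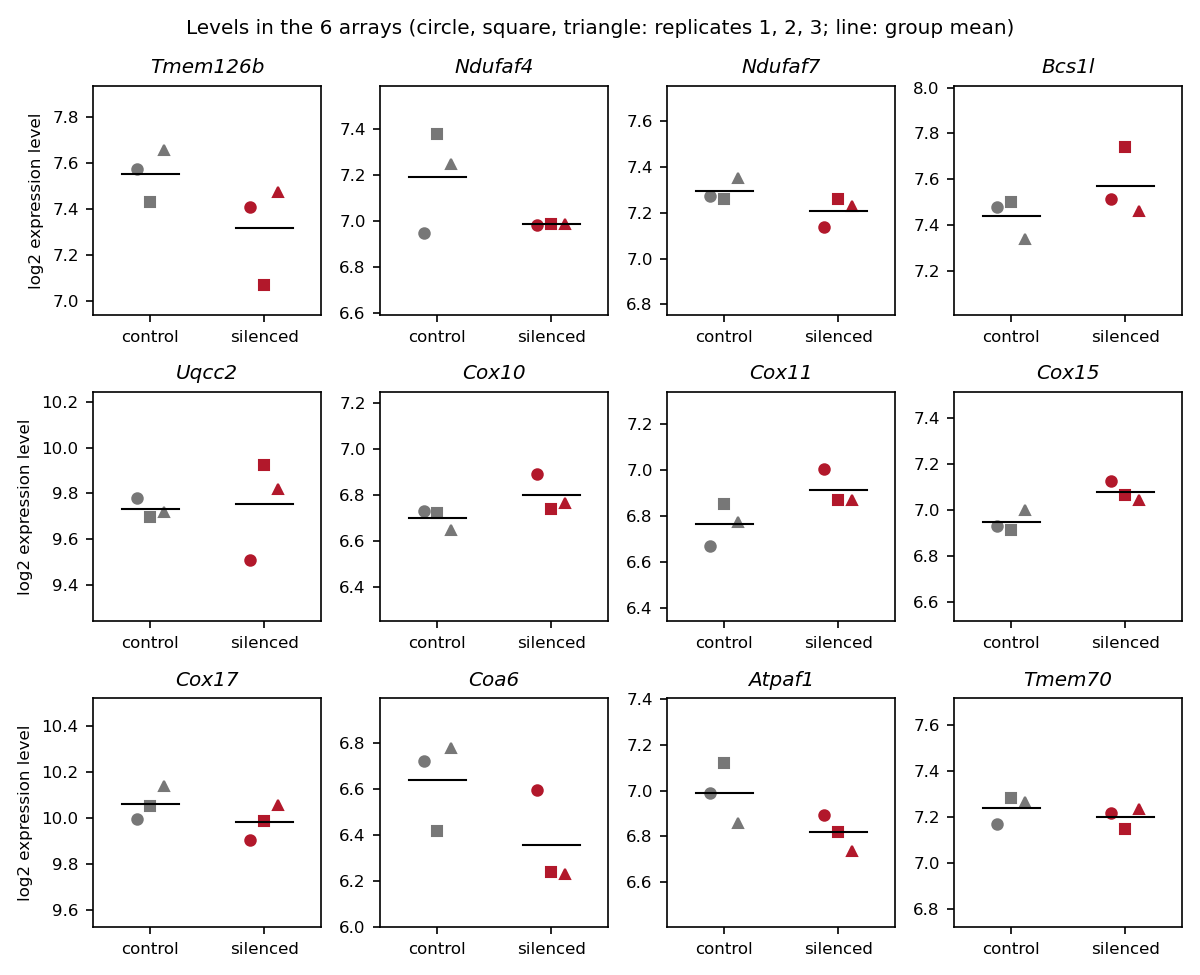
Log2 levels in each of the 6 arrays for 12 factors, with control in grey and silenced in red, symbols for replicate numbers and lines for group means. Each panel spans 1 log2 unit. Cox10, Cox11 and Cox15 do not overlap between the groups and are higher in silenced arrays, Ndufaf7 does not overlap and is lower, and the other 8 overlap.

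Factors that act on COX1 and COX2, the mitochondrially encoded core subunits, showed no shared direction. Taco1, a translational activator of COX1, differed by -0.029 ± 0.083 (SE), and Lrpprc, which stabilises mitochondrial messenger RNAs, by 0.059 ± 0.079 (SE). Coa3 and Cox14 bind newly made COX1. Coa3 differed by 0.0032 ± 0.10 (SE), while Cox14 read 8.10, 7.98 and 7.97 in control and 7.83, 7.99 and 7.77 in silenced arrays. Silenced replicates 1 and 3 of Cox14 lay below all control arrays, replicate 2 did not, and the difference was -0.15 ± 0.090 (SE; limma, adjusted p = 0.871). Surf1, a factor of early COX1 assembly whose loss causes Leigh syndrome, read 7.59, 7.94 and 8.02 in control and 7.69, 7.79 and 8.04 in silenced arrays. It differed by -0.011 ± 0.14 (SE), and the arrays numbered 1 were its lowest.

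Cox18 and Cox20 place COX2 in the membrane. Cox18 differed by 0.024 ± 0.11 (SE). Cox20 read 8.22, 8.42 and 8.33 in control and 7.94, 8.32 and 8.24 in silenced arrays, lower in each pair, with a difference of -0.16 ± 0.12 (SE; limma, adjusted p = 0.874). A second, dimmer row of Cox20 gave 0.098, so its direction depends on the row. Coa5 differed by 0.024 ± 0.086 (SE) and Coa7 by -0.070 ± 0.088 (SE).

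All 3 factors of the ATP synthase had lower means in silenced arrays. Atpaf1 is the chaperone of the beta subunit of the F1 head and Atpaf2 that of the alpha subunit. Atpaf1 read 6.99, 7.12 and 6.86 in control and 6.90, 6.82 and 6.74 in silenced arrays. Each silenced array was below its numbered control, but silenced replicate 1 was above control replicate 3. The difference was -0.17 ± 0.096 (SE; limma, adjusted p = 0.871), or -0.11 without control replicate 2, and a second row of Atpaf1 gave -0.12. Tmem70, which supports assembly of the ring of c subunits, read 7.17, 7.28 and 7.26 in control and 7.22, 7.14 and 7.24 in silenced arrays, which overlapped, with a difference of -0.038 ± 0.078 (SE; limma, adjusted p = 0.951). With single arrays left out it ranged from -0.073, without control replicate 1, to -0.012, without silenced replicate 2. Atpaf2 differed by -0.020 ± 0.097 (SE).

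Read by pair, 7 factors were lower in the silenced array of every replicate number: Acad9, Tmem126b, Ndufaf7, Cox17, Coa6, Cox20 and Atpaf1. That is 19.4% of the 36, against 15.9% of all tested genes. Higher in every pair were 5 factors, Ecsit, Bcs1l, Cox10, Cox11 and Cox15, or 13.9% against 19.7%. Complex I held 3 of the lower and 1 of the higher factors, and complex IV held 3 of each. Cox20 counts as lower on its brighter row only. Its second row was higher in every pair, at 7.47, 7.33 and 7.30 in control and 7.50, 7.56 and 7.34 in silenced arrays. The second row of Atpaf1 was lower in every pair, as was its first.

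**Figure D4:**
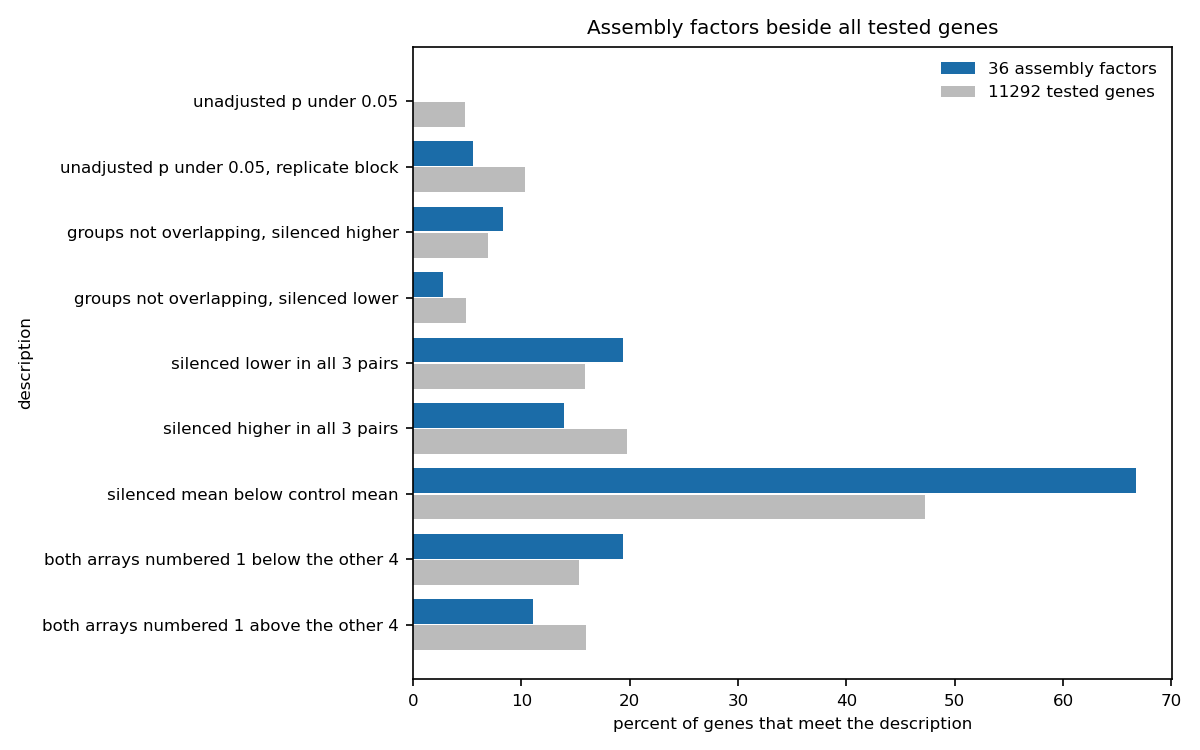
Percent of the 36 tested assembly factors (blue) and of all 11292 tested genes (grey) that meet each description on the vertical axis. The widest gap is in the share with a silenced mean below the control mean, 66.7% against 47.3%, and the factors lie below the background at an unadjusted p under 0.05 (0 against 4.80%).

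Some factors differed more between replicate numbers than between the groups. The contrast of arrays numbered 1 with the other arrays was larger in size than the group difference for 21 of the 36 factors (58.3%), against 60.4% of all tested genes. Both arrays numbered 1 lay below the other 4 for Ndufaf3, Ndufaf4, Uqcc1, Uqcc3, Ttc19, Surf1 and Cox20 (19.4%, against 15.3% of all tested genes). Both lay above them for Ecsit, Cox18, Coa5 and Atpaf2 (11.1%, against 16.0%). For complex III factors the median of this contrast was -0.28, with 3 of 5 below, against 0.0053 over all tested genes. Without both arrays numbered 1, 0 factors had an adjusted p under 0.05 in limma and 2 an unadjusted p under 0.05, which is 5.56% against 10.3% of all tested genes.

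**Figure D5:**
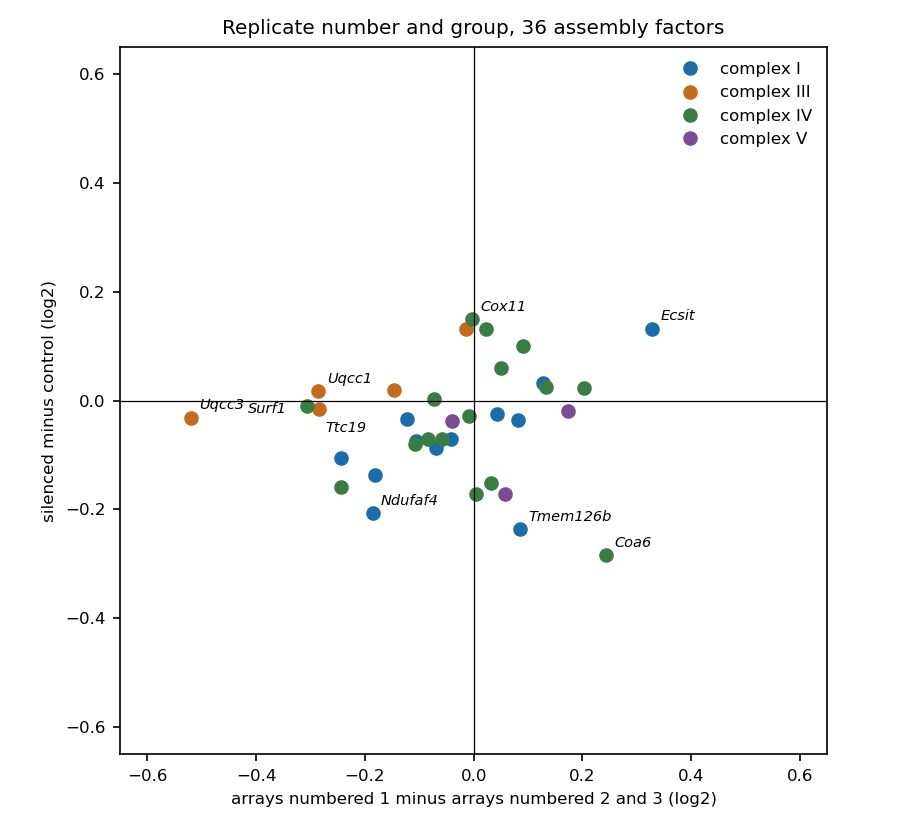
Contrast of the arrays numbered 1 with those numbered 2 and 3 (horizontal, log2) against silenced minus control (vertical, log2) for the 36 tested factors, coloured by complex. Uqcc3 lies farthest left at -0.52 with a group difference of -0.031, and Coa6 lies lowest at -0.28.

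The structural subunits that these factors assemble were read in the same way. Of 74 tested nuclear subunits of complexes I to V, 50 (67.6%) were lower on average after silencing, against 47.3% of all tested genes. Lower in every pair were 25 of the 74, a larger share than the 15.9% of all tested genes. Higher in every pair were 5 of the 74, a smaller share than the 19.7% of all tested genes. Lower without overlap were 10 of the 74, a larger share than 4.87%, and higher without overlap 2, a smaller share than 6.94%. These shares were not tested. The medians were -0.051 for complex I (34 tested), -0.077 for complex II (4), -0.060 for complex III (8), -0.053 for complex IV (13) and -0.0089 for complex V (15). In limma 0 of the 74 had an adjusted p under 0.05, and 1 had an unadjusted p under 0.05, a smaller share than the 4.80% of all tested genes. With the replicate block 4 of the 74 had an unadjusted p under 0.05, a smaller share than the 10.3% of all tested genes. A further list of 21 tested assembly factors outside the 41, among them those of complex II, had a median of -0.062. It held 15 lower means (71.4%, against 47.3% of all tested genes). Of these 21, 0 passed at an adjusted p and 1 at an unadjusted p under 0.05, against 4.80% of all tested genes. It was Sdhaf4, a complex II factor that differed by -0.48 ± 0.13 (SE; limma, adjusted p = 0.871). Sdhaf4 has 2 rows on the array, of which only the brighter was read. Whether factors and subunits differ in their shifts was not tested.

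Promoters of the factors were searched for motifs of regulators that are known to act on nuclear genes for mitochondrial proteins, in windows from 250 bases before to 50 after the start. The spellings of the motifs were chosen among several after their matches had been seen, so a share above the background cannot be read as an excess. RefSeq windows (GRCm38.p6) were matched by symbol for 35 of the 41 genes. The 35 include Sco2, Pet100, Pet117, Nubpl and Lyrm7, which were not tested, so they are not a strict subset of the tested genes set beside them. The ETS motif CCGGAAG, bound among others by GABP, was present on either strand in 11 of the 35 (31.4%), against 19.9% of tested genes with a window and 8.86% of all 32851 windows. These were Ndufaf1, Ecsit, Timmdc1, Bcs1l, Sco1, Cox10, Cox15, Surf1, Cox14, Cox20 and Pet100. The YY1 motif AAGATGGC was present in 5 (14.3%, against 5.33% of tested genes and 2.75% of windows), namely Tmem126b, Uqcc2, Cox10, Cox20 and Atpaf2. The NRF-1 motif TGCGCANGC was present in 3 (8.57%, against 9.92% and 4.16%), namely Ndufaf4, Uqcc2 and Coa5.

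Motifs common in many promoters gave shares of 80.0% for the GC box GGGCGG (69.2% of tested genes, 35.7% of windows) and 45.7% for CCAAT (43.0% and 37.4%). Each motif was counted separately. The ETS motif ends and the YY1 motif begins with AAG, so the same bases can serve both. The shares were not tested. Both haem A factors held the ETS motif, as the stretches of Cox10 and Cox15 shown above display. Of the other tested holders, Ecsit and Bcs1l had higher means in silenced arrays, and Ndufaf1, Timmdc1, Sco1, Surf1, Cox14 and Cox20 lower ones. A match describes letters in a window and is not evidence of binding. No peak, methylation or binding data were used here.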

How the data were processed

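The values are the authors' deposited log2 expression levels, 1 per array row and array, made with RMA, as the submitters' processing notes name it, with no version or row definition stated. RMA equalizes array distributions and compresses differences of dim genes. Per the labels' protocols, 100 ng of RNA per sample was labelled with biotin. Values were used as deposited.

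Rows were named from the platform annotation. Of 35556 rows, 21218 name 1 gene. Per gene the row with the highest mean was kept, and genes above the 40th percentile of means (3.87) were tested. The 2 groups were tested using limma 3.58.1 under R 4.3.3 (lmFit, eBayes, 2-sided, no covariate, Benjamini-Hochberg over 11292 genes, threshold 0.05). The fit was tried on simulated data whose shifts were larger than any difference of the factors, with no effect of replicate number. That trial does not show whether shifts as small as those of the factors would be found. Same-numbered arrays correlated in their deviations from group means (0.55, 0.35 and 0.42); this pairing comes from the data, not from a label. Alternatives were the replicate block, other filters, repeated quantile normalization, the mean of a gene's rows, an intensity trend and leaving arrays out. The number of arrays limits the precision.

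The factors, their grouping and the lists were chosen with earlier results of these data known, and the spellings of the promoter motifs were chosen among several after their matches had been seen. Values in every array are given for factors with an unadjusted p under 0.05 with or without the block, the 2 with the smallest p per complex, and the highest and lowest mean. Other factors given so (Ndufaf7, Cox10, Cox11, Ecsit, Sco1, Cox14, Cox20, Surf1, Uqcc1, Uqcc3, Ttc19, Nubpl) were chosen after their values were seen. Sdhaf4 has the smallest p of its list.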

Additional observations from a re-analysis of the deposited data

How the results depend on the processing

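The count of factors and of genes with an adjusted p under 0.05 was 0 in the main fit and in all 13 alternatives. Factors with an unadjusted p under 0.05 numbered 0 in the main fit, 2 with the replicate block, 2 without both arrays numbered 1 (each 5.56%, against 10.3% of all tested genes), and 0 to 1 when single arrays were left out (0 to 2.78%, against 2.41% to 7.33%). With the block, genes at an unadjusted p under 0.05 numbered 1168 in place of 542. It changed no call at an adjusted p. Median differences, with single arrays left out, ranged from -0.10 to -0.043 for complex I, -0.050 to 0.14 for complex III, -0.062 to -0.0058 for complex IV and -0.080 to -0.012 for complex V. The complex IV median was -0.020 in the main fit, -0.060 without control replicate 1, -0.062 without silenced replicate 3 and -0.054 without both arrays numbered 1. That of complex III changed sign with several settings, among them repeated quantile normalization. Uqcc2 turned to -0.0028 after repeated quantile normalization and to -0.075 with the mean of its rows, and ranged from -0.067 to 0.14 with single arrays left out. The value with the mean of its rows averages the 0.019 of its brighter row and the -0.17 of its dimmer row. Why the rows disagree, and the cause of the other changes, was not tested. Of the 36 factors, 20 kept their direction in all 13 alternatives in which they were tested, among them Tmem126b, Ndufaf4, Cox10, Cox11, Cox15, Coa6 and Atpaf1. The replicate block, the other filters and the intensity trend leave each difference unchanged by construction, so they are no check of direction. The mean of a gene's rows can change it only for genes with several rows. With 3 arrays per group, the median standard error of the factors was 0.10 in the fit without the block. Shifts well above that size could still miss the adjusted threshold, as did Sdhaf4 at -0.48 ± 0.13 (SE; limma, adjusted p = 0.871). Nubpl and Lyrm7 were too dim to test.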
